A study of Homo sapiens with 9 samples.

Results

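RNA sequencing compared COM33 added to carboplatin with carboplatin alone in SKOV3, an established line of human ovarian cancer cells. The comparison takes 6 of the 9 libraries of the study: 3 libraries of cells given Carbo and 3 of cells given Carbo+COM33. Both groups therefore carry carboplatin. A further 3 control libraries, of cells given neither agent, were fitted in the same model and are quoted for reference only. Genes entered when they had at least 10 counts in at least 3 of the 6 libraries, which held for 16074 of the 32378 genes in the table. COM33 is known here by its code name alone, and the labels give neither its dose nor that of carboplatin, nor a treatment time. No group had COM33 without carboplatin, so a response to COM33 itself and a response to the combination cannot be told apart. The labels do not say whether replicates were separate cultures, so the p-values cover only how far these samples spread, and that spread may be technical. The cells were grown with 10% serum, and SKOV3 was the single line used. RNA was taken from whole cultures, so fewer cells in a state and less RNA per cell in that state cannot be told apart.

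Carboplatin forms crosslinks in DNA that block replication forks and activate checkpoint kinases and p53, where p53 is intact. The ERK cascade passes signals from receptor tyrosine kinases through RAS, RAF and MEK to ERK, which induces transcription factors and its own inhibitors. In the epithelial-mesenchymal transition (EMT), factors of the SNAI, ZEB and TWIST families repress cadherin and keratin genes of epithelia. The title and design text of the study ask about these processes, and about how COM33 bears on carboplatin sensitivity.

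Total counts ran from 13851760 to 15533668 per library, and none of the library pairs was identical. Levels are given in CPM, counts relative to a library size scaled by the trimmed mean of M-values. In a principal component analysis of all 9 libraries the first component took 51.3% of the variance. On it the Carbo+COM33 libraries lay at -10.8, -7.59 and -12.7, Carbo 2 and 3 at 13.6 and 19.7, and Carbo 1 at -3.60, apart from its group. Control 1 likewise lay at -9.17, against 3.50 and 6.98 for the other controls. On the second component (33%) Carbo+COM33 3 lay at -3.36 and the other libraries of its group at 13.8 and 10.3. Carbo 1 was the Carbo library nearest to Carbo+COM33 in 82.4% of the genes that rose and 84.4% of those that fell. Results are therefore given with each library left out in turn.

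With COM33 added, 813 genes changed, 5.06% of those tested. A gene is called changed when its adjusted p is under 0.05, in the quasi-likelihood test of edgeR, adjusted by Benjamini-Hochberg over all 16074 genes. Of these, 410 rose (2.55%) and 403 fell (2.51%). The changes were mostly modest: the median log2 fold change, Carbo+COM33 over Carbo, was 0.60 among genes that rose and -0.68 among those that fell. A log2 fold change over 1 was reached by 79 genes that rose, and one under -1 by 117 that fell. In 810 of the called genes the values of the groups did not overlap, which held for 23.8% of all tested genes. Protein-coding genes made up 92.1% of called and 81.3% of tested genes. The number of calls rested on single libraries: it was 2734 without Carbo 1, 123 without Carbo 2 and 268 without Carbo 3, and 240, 242 and 498 without Carbo+COM33 1, 2 and 3. Without control 1, 2 or 3, which enter only through the shared estimate of spread, it was 1049, 534 and 617. A set of 121 genes was called in the same direction in each of the 9 fits that left out 1 library, 72 of which rose and 49 fell. Of the other 692 called genes, 690 were not called without Carbo 2, 67 of them without Carbo 2 alone; 547 were not called without Carbo 3, 575, 571 and 405 without Carbo+COM33 1, 2 and 3, 283 and 205 without control 2 and 3, 5 without control 1 and 1 without Carbo 1. Where a call is given below as lost, the p-value is the largest adjusted p over these 9 fits.

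**Figure D1:**
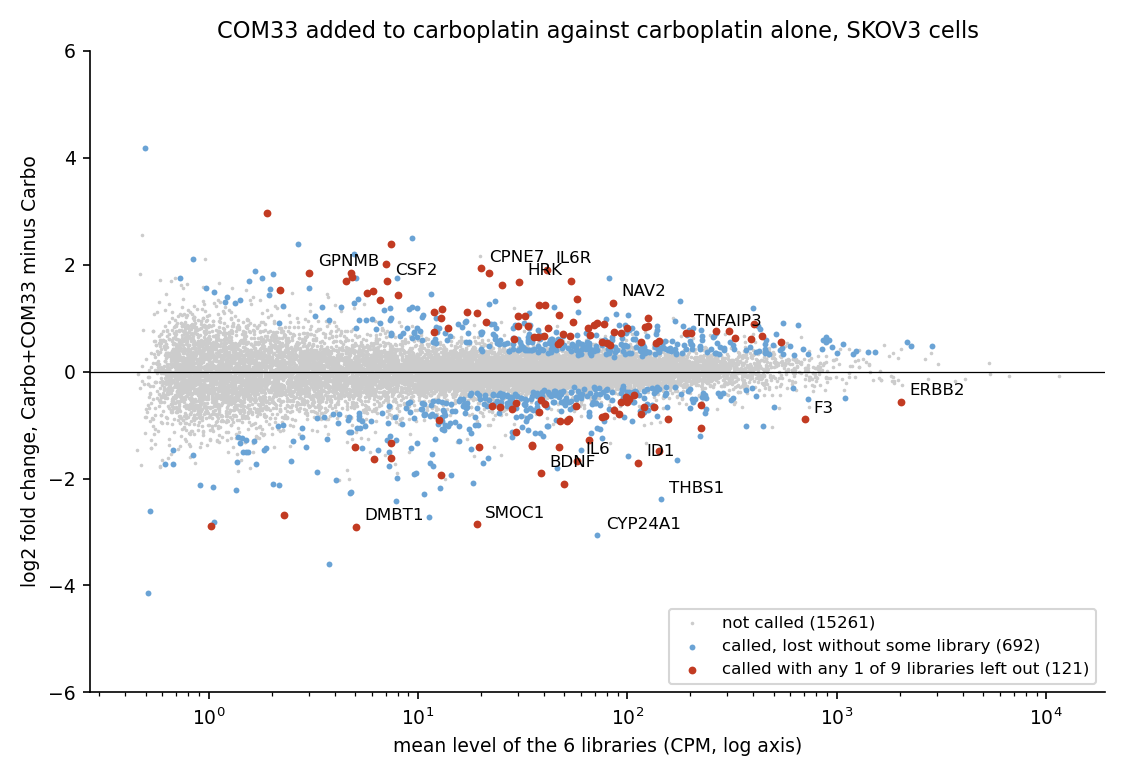
Log2 fold change (Carbo+COM33 minus Carbo, vertical axis) against the mean level of the 6 libraries (CPM, log axis) for the 16074 tested genes. Grey points were not called, blue points were called but lost the call without some library, and the 121 red points were called whichever library was left out; red points reach down to SMOC1 and DMBT1 and up past IL6R and CPNE7.

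**Figure D2:**
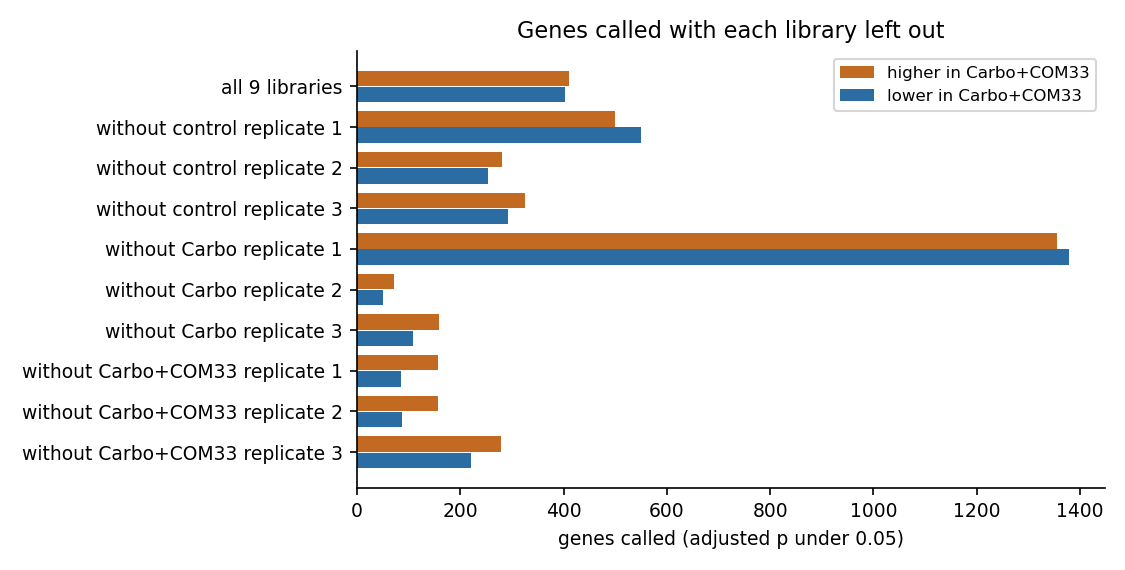
Number of genes called higher (orange bars) and lower (blue bars) in Carbo+COM33 than in Carbo, with all 9 libraries and with each library left out. Leaving out Carbo 1 raised the total from 813 to 2734, and leaving out Carbo 2 lowered it to 123.

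Genes that fell and were called in every left-out fit are described first. SMOC1, a secreted calcium-binding matrix protein, stood at 29.6, 34.5 and 36.8 CPM in the Carbo libraries and 4.06, 4.55 and 5.26 CPM in Carbo+COM33 (log2 fold change -2.86, SE 0.20, adjusted p = 5.08e-05). The controls had 17, 24.3 and 29.8 CPM, so every Carbo+COM33 library lay below every other library. DMBT1, a scavenger receptor of mucosal epithelia, stood at 5.73, 8.64 and 12.3 and 1.18, 1.68 and 0.693 CPM (-2.90, adjusted p = 0.002). LIMCH1, which activates non-muscle myosin, went from 38.4, 86.5 and 117 to 18.5, 20.7 and 16.9 CPM (-2.11, adjusted p = 0.00587). WISP2, a matricellular protein of the CCN family named after its values were seen, had 2.29, 4.83 and 4.85 CPM in Carbo and 0.148, 0.841 and 0.831 CPM with COM33 (-2.69). The neurotrophin gene BDNF, also named after its values were seen, fell from 37.5, 65.2 and 80.7 to 14.2, 16 and 19.1 CPM (-1.89); it overlaps BDNF-AS on the other strand, and its value is uncertain because the sources used here do not give the strand setting used in counting. DKK1, an extracellular WNT inhibitor, fell by 1.39 on the log2 scale, NID2, a basement membrane nidogen, by 1.28, and the protease inhibitor TFPI2 by 1.48. In each of these genes the lowest Carbo library lay above the highest Carbo+COM33 library.

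Genes that rose and were called in every left-out fit follow. CPNE7, a copine that binds membranes in response to calcium, stood at 11.1, 7.56 and 6.03 CPM in Carbo and 30.1, 30.6 and 34.4 CPM in Carbo+COM33, against 12.8, 13.4 and 10.8 CPM in the controls (log2 fold change 1.94, SE 0.18, adjusted p = 4.97e-04). NAV2, a neuron navigator protein linked to the cytoskeleton, rose from 53.4, 46.9 and 47.8 to 128, 122 and 113 CPM, with 51.4, 44 and 40.5 CPM in the controls (log2 fold change 1.29, SE 0.10, adjusted p = 8.92e-05). The Carbo and control values of NAV2 lay between 40.5 and 53.4 CPM, and its Carbo+COM33 values began at 113 CPM. DYSF, which seals breaks in the plasma membrane, rose from 14.2, 7.81 and 6.66 to 30.3, 36.1 and 36.2 CPM (1.84), and TLN2, a talin that couples integrins to actin, from 40.2, 29.3 and 27.6 to 87.8, 83.2 and 77.9 CPM (1.36). NDRG4 rose from 34.7, 22.4 and 19.1 to 83.9, 82.1 and 80.1 CPM (1.69), ASB2, a substrate receptor of ubiquitin ligases, from 4.05, 2.1 and 2.22 to 12.4, 11.4 and 10.2 CPM (2.02), and PLA2G4C, a cytosolic phospholipase, from 16.1, 9.27 and 11.6 to 37, 37.9 and 38.6 CPM (1.62). CD22, named after its values were seen and best known as a B cell lectin, rose from 0.607, 0.317 and 0.347 to 3.32, 2.73 and 4.02 CPM (2.96). Blood and immune marker genes were otherwise near absent: 0 of 17 reached the count minimum, and the summed level of those in the table ran from 1.28 to 2.16 CPM in Carbo and from 0.911 to 1.45 CPM in Carbo+COM33. PLA2G4C, TM4SF19 (2.39) and NAV2 overlap antisense genes and are uncertain for the same reason as BDNF.

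**Figure D3:**
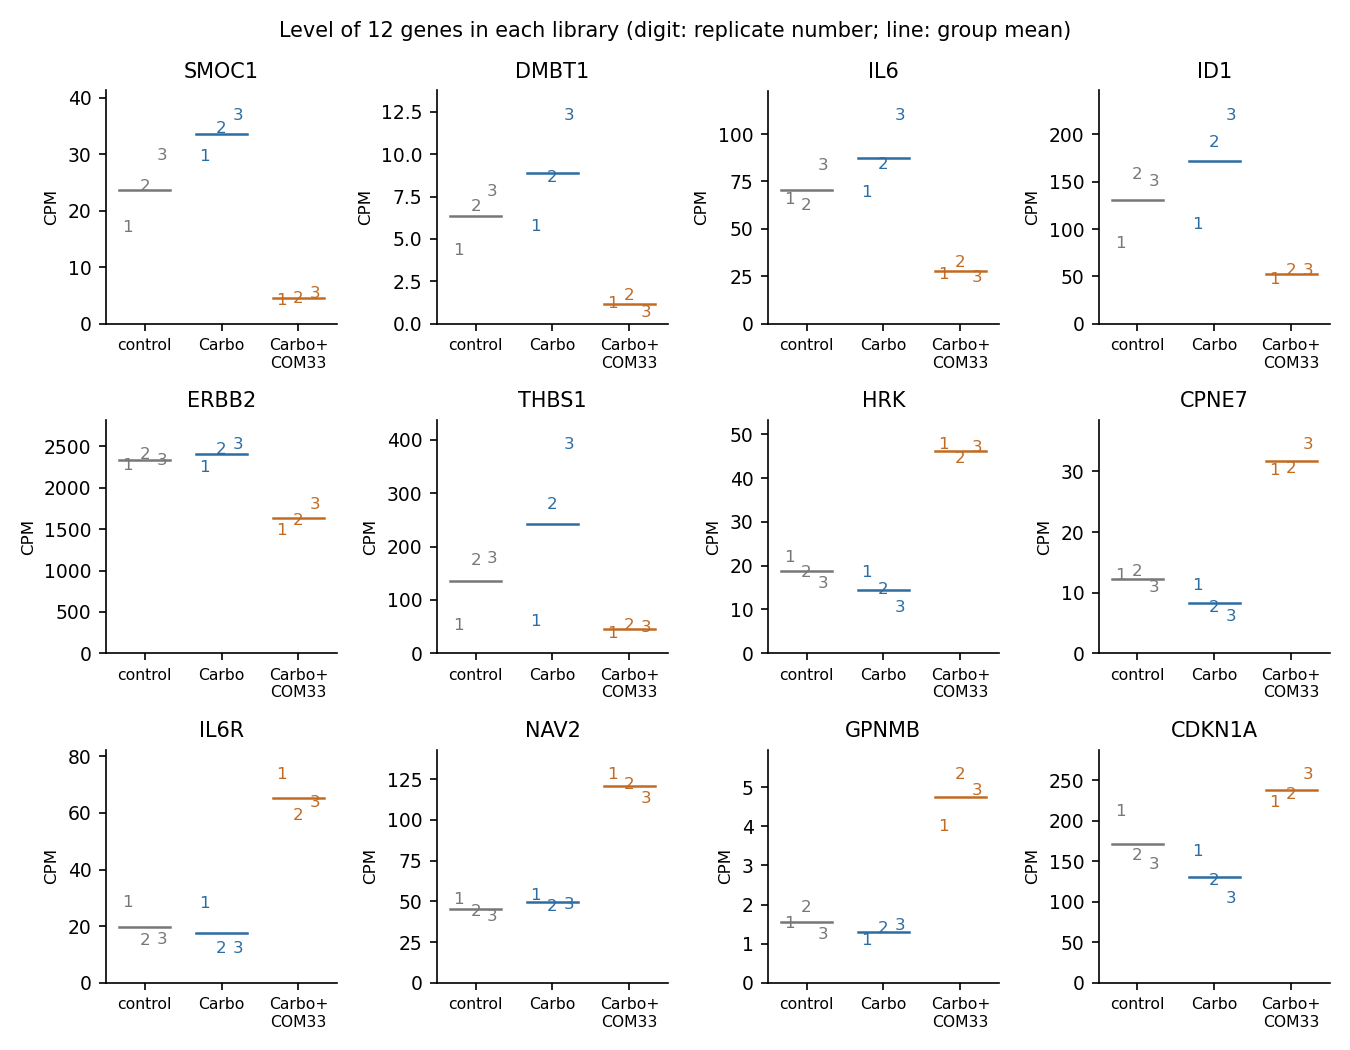
Level (CPM, linear axis from 0) of 12 genes in each of the 9 libraries; the digit is the replicate number and the line the group mean. In SMOC1, DMBT1, IL6, ID1 and ERBB2 the 3 Carbo+COM33 libraries lie below all others and in HRK, CPNE7, IL6R, NAV2, GPNMB and CDKN1A above all others, while in THBS1 Carbo 1 lies near the Carbo+COM33 values.

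Genes of the cascade from RAS to ERK were seldom called, as were tested genes as a whole (5.06%). Of 32 tested genes of the RAS-RAF-MEK-ERK cascade 0 rose and 1 fell, the adaptor SHC1 (-0.39, adjusted p = 0.038), and the median log2 fold change was 0.03, against -0.000499 over all tested genes. Without Carbo 1, 3 rose and 4 fell, and with DESeq2 2 rose and 3 fell. MAPK3, which encodes ERK1, had 66.6, 58.7 and 64.6 CPM in Carbo and 67.8, 65.4 and 66.6 CPM in Carbo+COM33 (0.07, adjusted p = 0.665). The log2 fold changes of BRAF, MAP2K1 and MAP2K2 were -0.03, 0.03 and 0.04, and none was called. SHC1 was not called without control 2 or 3, Carbo 2 or 3, or Carbo+COM33 1 or 2 (adjusted p up to 0.197). RNA levels do not measure phosphorylation of these kinases.

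Genes induced by ERK moved in both directions. Among 27 tested feedback and output genes 4 rose and 3 fell, with a median of 0.10. Of all tested genes 2.55% rose and 2.51% fell. Of the nuclear phosphatases that remove phosphate from ERK, DUSP5 rose from 114, 108 and 114 to 163, 151 and 172 CPM (log2 fold change 0.53, SE 0.075, adjusted p = 0.00296) and DUSP4 fell from 125, 122 and 122 to 90.4, 91.8 and 91.2 CPM (log2 fold change -0.43, SE 0.068, adjusted p = 0.00484). Both held in every left-out fit, and in both the Carbo libraries lay close together. DUSP6, the cytoplasmic phosphatase of the family, had 22.2, 23.1 and 22.7 and 21.1, 23.8 and 24.2 CPM (0.02, adjusted p = 0.927). The feedback inhibitors SPRY2 and SPRY4 (0.06 and 0.19), the ETS factors ETV4 and ETV5 (0.13 and 0.21), PHLDA1 (0.02), MYC (0.11), FOS (-0.45), EGR1 (-1.42) and FOSL1 (0.32) were not called. CCND1, cyclin D1, rose from 176, 138 and 131 to 264, 227 and 226 CPM (0.69) and HMGA2, a chromatin protein, by a log2 fold change of 0.48. The potassium channel gene KCNN4 fell (-1.15), as did TFPI2. Among 26 tested AP-1 and early response genes 5 rose and 3 fell: JUN rose (0.43) with ATF3 (0.71), KLF6 (0.58), KLF10 (0.71) and KLF2 (0.64), while JUND (-0.43), FOSL2 (-0.46) and KLF5 (-0.62) fell. Without Carbo 2, CCND1, HMGA2, KCNN4, JUN, JUND, FOSL2, ATF3, KLF2, KLF6 and KLF10 were not called, with adjusted p up to 0.145 over the left-out fits.

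Receptors upstream of the cascade included one of the most abundant genes of the line. ERBB2, the receptor HER2, which is amplified in SKOV3, stood at 2245, 2467 and 2518 CPM in Carbo and 1489, 1610.4 and 1800.2 CPM in Carbo+COM33, with 2274, 2407 and 2329 CPM in the controls (log2 fold change -0.56, SE 0.09, adjusted p = 0.00529). The call held in every left-out fit; exons of ERBB2 overlap MIEN1 and PGAP3 on the other strand. EGFR had 424, 403 and 399 and 457, 454 and 422 CPM (0.12, adjusted p = 0.377). Among all tested genes 2.55% rose and 2.51% fell. Of 16 tested receptor tyrosine kinases 0 rose and 2 fell (2 and 4 without Carbo 1), ERBB2 and IGF1R (-0.33, adjusted p up to 0.187 with a library left out). Of 8 tested EGF family ligands 2 fell, NRG1, a neuregulin (-1.59), and AREG, amphiregulin (-0.80), with a median of -0.28 over the list. NRG1 had 70.2, 162 and 221 CPM in Carbo and 50.1, 54.7 and 45.9 CPM in Carbo+COM33, and Carbo 1 was closest to the other group. NRG1 and AREG were not called when Carbo 2, Carbo 3 or 1 of the Carbo+COM33 libraries was left out (adjusted p up to 0.081 and 0.137).

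The transcription factors and markers of EMT were mostly not called, as held for tested genes as a whole (5.06% called). Of 14 tested EMT transcription factors 1 rose, the forkhead factor FOXC1 (0.48, adjusted p up to 0.171 with a library left out), and the median was 0.03. TWIST1 had 8.03, 8.45 and 8.74 CPM in Carbo and 6.13, 7.22 and 9.7 CPM in Carbo+COM33 (-0.13, adjusted p = 0.712), ZEB1 102, 120.3 and 128 and 126, 127 and 96.8 CPM (adjusted p = 0.996), and ZEB2 30.5, 30.4 and 30.4 and 36.5, 37.6 and 29.1 CPM (0.18, adjusted p = 0.343). SNAI2, which encodes SLUG, had 157, 203 and 202 and 251, 250.4 and 214 CPM, groups that did not overlap, and did not pass (0.35, adjusted p = 0.0828). SNAI1 had 13, 8 and 9 counts in Carbo and 7, 16 and 9 in Carbo+COM33, under the minimum for testing. CDH1, which encodes E-cadherin and defines epithelia, had 0, 1 and 0 counts in Carbo and 1, 0 and 0 in Carbo+COM33, so a fall of this transcript was not detectable at this depth, and no rise was seen. None of 14 tested mesenchymal cadherin, filament and matrix genes was called by edgeR; without Carbo 1, 1 rose and 3 fell. VIM, vimentin, had 639.7, 809 and 982 and 809.9, 823 and 642 CPM (-0.10), CDH2, N-cadherin, 68.7, 82.9 and 93.5 and 76, 76.5 and 62.1 CPM (-0.19), and FN1, fibronectin, 554, 889 and 875 and 564, 739 and 615 CPM (-0.27). In all of these 3 the groups overlapped.

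Some epithelial genes were lower with COM33. Of 12 tested keratins 0 rose and 4 fell, and without Carbo 1, 2 rose and 4 fell. The log2 fold change was positive in 4 keratins and negative in 8. KRT10 was higher with COM33, with groups that did not overlap, and was not called (0.86, adjusted p = 0.0592). KRT17, a keratin of basal and activated epithelia, stood at 47.6, 83.6 and 74.6 CPM in Carbo and 19, 25.4 and 33 CPM in Carbo+COM33 (-1.41, adjusted p = 0.00639) and was called in every left-out fit. KRT7, a keratin of simple epithelia and ovarian carcinoma, had 207, 367 and 354 and 116, 153 and 135 CPM (-1.20). The keratin genes KRT8 (-0.13), KRT18 (-0.14), KRT19 (-0.09) and KRT80 (0.09) were not called. KRT81 (-3.59) and KRT86 (-1.34), near-identical hair keratins whose reads may be shared, had under 10 CPM in each Carbo library. Of 28 tested epithelial adhesion genes 0 rose and 2 fell, JUP, plakoglobin (-0.71), and CD24 (-0.45), where 5.06% of all tested genes were called. The log2 fold change was positive in 11 adhesion genes and negative in 17, and without Carbo 1, 1 rose and 3 fell. KRT7, KRT81, KRT86, JUP and CD24 lost the call without Carbo 2 or Carbo+COM33 1, with adjusted p up to 0.0618, 0.0967, 0.135, 0.0735 and 0.116. Among 17 tested markers of ovarian epithelial tumours 0 rose and 3 fell, KRT7, ERBB2 and MECOM (-1.06), a zinc finger factor amplified in ovarian cancer. Their summed level was 4141 to 4517 CPM in Carbo and 3177 to 3632 CPM in Carbo+COM33. ERBB2 alone had means of 2410 CPM in Carbo (SD 145, n = 3) and 1633 CPM in Carbo+COM33 (SD 157, n = 3). PAX8, which defines the lineage, had 417, 296 and 279.9 and 533, 452 and 476 CPM (0.56, adjusted p = 0.0707), groups that did not overlap, while WT1 and MUC16 were under 3 CPM in every library.

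Called genes on the list of SMAD proteins and targets were lower with COM33, while listed ligands and receptors of the pathway were called in both directions. SMAD proteins carry BMP and TGF-beta signals to the nucleus, where the ID genes, inhibitors of differentiation, are direct BMP targets. Of 27 tested SMAD genes and targets 0 rose and 6 fell, with a list median of -0.29. The share over all tested genes was 2.55% that rose and 2.51% that fell. On this list 14 fell without Carbo 1 and 1 without Carbo 2. ID1 had 105, 191 and 219.96 CPM in Carbo and 46.5, 56 and 56 CPM in Carbo+COM33, with 85.1, 157 and 149.9 CPM in the controls (log2 fold change -1.70, SE 0.26, adjusted p = 0.00442). All Carbo+COM33 libraries lay below all others, and the call held in every left-out fit. ID3 stood at 19, 36.8 and 41.7 and 7.68, 11.7 and 12.5 CPM (-1.61), ID4 at 8.63, 12.6 and 19.1 and 5.61, 5.33 and 4.02 CPM (-1.43), and SMAD6, an inhibitory SMAD that BMP induces, at 18.5, 36.6 and 39 and 7.6, 10.3 and 10.9 CPM (-1.70). PMEPA1 (-0.66) and SMURF2 (-0.33), feedback inhibitors of the pathway, fell less. Of 33 tested TGF-beta, activin and BMP ligands and receptors 2 rose and 1 fell, with a median of -0.04 (4 and 7 without Carbo 1). INHBA, a subunit of activin, fell from 13.6, 15.9 and 19.9 to 9.45, 8.2 and 8.66 CPM (-0.91), and the pseudoreceptor BAMBI (0.71) and the ligand GDF15 (0.42) rose. ID3 and BAMBI were not called without Carbo 2 (adjusted p = 0.0543 and 0.0735), nor SMAD6 without Carbo 2 or Carbo+COM33 1 (up to 0.0543). ID4, PMEPA1 and SMURF2 lost the call without any 1 of at least 5 libraries (adjusted p up to 0.0681, 0.107 and 0.179).

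YAP and TAZ act through TEAD factors on genes of growth and matrix. Of 29 tested targets and components 0 rose and 9 fell, with a list median of -0.32. The share over all tested genes was 2.55% that rose and 2.51% that fell. On this list 16 fell without Carbo 1 and 2 without Carbo 2. F3, tissue factor, stood at 715, 994 and 1039 CPM in Carbo and 473, 508 and 505 CPM in Carbo+COM33 (log2 fold change -0.89, SE 0.14, adjusted p = 0.00484), and IGFBP3, which binds insulin-like growth factors, at 129.98, 136 and 174 and 95.7, 80.8 and 78 CPM (log2 fold change -0.79, SE 0.11, adjusted p = 0.00332). Both were called in every left-out fit. CYR61, a matricellular protein and a classic YAP target, had 105, 147 and 178 and 79.6, 86.3 and 93.4 CPM (-0.73), and CRIM1 299, 542 and 638 and 225, 260.2 and 241 CPM (-1.03). RBMS3 (-1.89), TEAD2 (-0.73), AMOTL2 (-0.61), AJUBA (-0.49) and ARHGEF17 (-0.32) were the others, and of the 9 only AJUBA had groups that overlapped. Except for F3 and IGFBP3, these genes were not called without Carbo 2 or Carbo 3, with adjusted p up to 0.0871 for RBMS3, 0.0978 for CYR61, 0.116 for CRIM1 and 0.219 for ARHGEF17. The TEAD core GGAATG, on either strand, occurred in the 250 bases before the start of 9 of 21 listed genes with a RefSeq promoter (42.9%), in 2 of the 6 of them that fell (33.3%), in 18.8% of all genes that fell and in 13.2% of all tested genes.

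Cytokine and NF-kB genes split, with 7 that rose and 7 that fell among 34 tested. Of all tested genes 2.55% rose and 2.51% fell. NF-kB factors are released by inflammatory signals and induce cytokines together with their own inhibitors. IL6, the interleukin 6 gene, stood at 68.9, 84.1 and 109.8 CPM in Carbo and 25.8, 32.5 and 24.4 CPM in Carbo+COM33, with 65.7, 62.2 and 83.2 CPM in the controls (log2 fold change -1.67, SE 0.17, adjusted p = 4.97e-04). Its receptor gene IL6R moved the other way, from 28.1, 12.1 and 12.3 to 73.6, 59.2 and 63.6 CPM (log2 fold change 1.90, SE 0.30, adjusted p = 0.00497), with 28.4, 14.9 and 15.3 CPM in the controls. Both held in every left-out fit. IL6 overlaps STEAP1B on the other strand and is uncertain to that extent. The other genes that fell were the cytokines IL11 (-1.01), IL18 (-1.46) and IL1B (-0.59) and the chemokines CCL20 (-1.46), CXCL1 (-0.39) and CXCL2 (-0.40). The inhibitors TNFAIP3, which encodes the deubiquitinase A20, and NFKBIA rose. TNFAIP3 stood at 148, 139.6 and 141 and 251, 231 and 228 CPM (log2 fold change 0.73, SE 0.075, adjusted p = 4.97e-04). TRAF1, a signalling adaptor, rose from 22.9, 23.4 and 26 to 48.9, 59.4 and 62.4 CPM (1.24), and the colony-stimulating factors CSF1 (219.9, 195 and 177 to 318, 324 and 354 CPM) and CSF2 (3.78, 3.24 and 3.05 to 11.9, 10.7 and 9.83 CPM) rose by log2 fold changes of 0.75 and 1.68. IL32 rose by 0.76, and IL1RN, the antagonist of the interleukin 1 receptor, by 1.82 from under 2 CPM. IL11, IL18, IL1B, CCL20, CXCL1, CXCL2, NFKBIA and IL1RN were not called without Carbo 2, with adjusted p over the left-out fits of up to 0.0618 for CXCL2 and 0.228 for NFKBIA. TNFRSF9, the receptor 4-1BB, rose from 95.4, 78.3 and 88 to 158, 159.8 and 147 CPM (0.83) and held in every left-out fit.

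Calls among genes of cell death and p53 targets are set beside those over all tested genes, of which 2.55% rose and 2.51% fell. HRK, a BH3-only protein that neutralises survival members of the BCL2 family, stood at 18.3, 14.5 and 10.3 CPM in Carbo and 47.5, 44.4 and 46.9 CPM in Carbo+COM33, with 21.9, 18.5 and 15.9 CPM in the controls (log2 fold change 1.68, SE 0.17, adjusted p = 4.97e-04). It was the 1 gene called among 17 tested members of the BCL2 family, whose median was 0.23. The BH3-only genes PMAIP1 (0.23), BBC3 (0.27) and BCL2L11 (-0.01) and the survival genes MCL1 (0.11) and BCL2L1 (0.07) were not called. SKOV3 is a p53-deficient line, and the cause of changes in the listed p53 targets was not tested. Of 27 tested p53 targets 5 rose and 1 fell. CDKN1A, the p21 inhibitor of cyclin-dependent kinases, rose from 163, 126 and 104 to 222, 233 and 257 CPM (0.86), with 211, 157 and 146 CPM in the controls. GADD45A (0.65), AEN (0.58), GDF15 (0.42) and the death receptor gene TNFRSF10B (0.42) rose, and PLK2 fell (-0.74). None of the 6 was called without Carbo 2 (CDKN1A at adjusted p = 0.073), and all but CDKN1A were also lost without Carbo 3 (up to 0.199 for TNFRSF10B). Of 26 tested TNF receptors and ligands 2 rose, TNFRSF10B and TNFRSF9, and 2 fell, the receptor TNFRSF21 (-0.83) and the ligand CD70 (-0.50), with a median of 0.06. TNFRSF21 and CD70 were not called without Carbo 2 or Carbo 3 (adjusted p up to 0.0855 and 0.205). GSDME, a gasdermin that forms pores after caspase cleavage and was named after its values were seen, rose from 76, 61.3 and 55.3 to 111, 107 and 106 CPM (0.75) and was called in every left-out fit.

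DNA replication genes were lower with COM33 than with carboplatin alone, but with wide spread among the Carbo libraries. Their summed level was 919 to 1128 CPM in the controls, 1079 to 1700 CPM in Carbo and 949 to 1003 CPM in Carbo+COM33. Over all tested genes 2.55% rose and 2.51% fell. Of 40 tested replication genes 0 rose and 13 fell, 39 had a negative log2 fold change, and the median was -0.53. Among them were the transcription factors E2F1, at 24.6, 41.6 and 49 CPM in Carbo and 16.8, 15.8 and 20.2 CPM in Carbo+COM33 (-1.13), and E2F2, at 7.28, 14.9 and 15.9 and 2.36, 2.52 and 4.64 CPM (-1.99). Of the MCM helicase genes, MCM7 (-0.90), MCM3 (-0.63), MCM4 (-0.61) and MCM5 (-0.53) fell. The licensing factors CDT1 (-0.93) and CDC6 (-0.50), the helicase cofactors CDC45 (-1.27) and MCM10 (-0.99), the polymerase POLD1 (-0.52), the ligase LIG1 (-0.68) and RRM2, a subunit of ribonucleotide reductase (-1.08), fell as well. In RRM2 the Carbo libraries had 15.6, 20.9 and 35.2 CPM and the Carbo+COM33 libraries 12, 11.4 and 10.5 CPM, so Carbo 1 lay near the other group and Carbo 3 far from it. The count was 33 that fell without Carbo 1, 3 without Carbo 3 and 0 without Carbo 2. Mitotic genes showed the same dependence: of 47 tested 1 fell, KIF20A (-0.999), the median was -0.35, and without Carbo 1 28 fell. The mitotic list summed to 3500 to 3864 CPM in the controls, 4072 to 5719 CPM in Carbo and 3741 to 4131 CPM in Carbo+COM33. Of 45 tested genes of crosslink repair and homologous recombination 0 rose and 2 fell, against 2.51% of all tested genes that fell. These 2 were FANCA (-0.54) and RPA1 (-0.41), and 16 of the list fell without Carbo 1. Both, and KIF20A, were lost without Carbo 2 (adjusted p over the left-out fits up to 0.152, 0.147 and 0.0643). ERCC1, the repair nuclease subunit often tied to platinum resistance, had 35.4, 34.6 and 35.3 and 38.2, 37.9 and 43.2 CPM (0.18, adjusted p = 0.239).

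E2F factors induce replication genes, so the promoters of E2F1 and MCM3 are shown, with matches to TTTNNCGC on either strand in capitals. They span chr20:33686386-33686635 and chr6:52284743-52284992 of GRCh38.p14, both on the minus strand, and are printed 5′ to 3′ along the gene.
E2F1: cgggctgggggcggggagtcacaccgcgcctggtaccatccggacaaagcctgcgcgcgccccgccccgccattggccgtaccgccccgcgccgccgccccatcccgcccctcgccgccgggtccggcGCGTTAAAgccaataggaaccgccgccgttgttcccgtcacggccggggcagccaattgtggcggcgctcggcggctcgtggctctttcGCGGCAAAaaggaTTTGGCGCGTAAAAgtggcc
MCM3: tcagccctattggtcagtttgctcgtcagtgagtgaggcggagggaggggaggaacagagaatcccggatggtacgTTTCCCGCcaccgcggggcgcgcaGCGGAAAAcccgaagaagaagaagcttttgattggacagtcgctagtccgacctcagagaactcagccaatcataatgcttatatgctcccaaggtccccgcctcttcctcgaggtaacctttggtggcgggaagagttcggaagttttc
E2F1 holds 4 matches, those nearest the start overlapping, and MCM3 holds 2. The motif occurred in 16 of 34 replication genes with a promoter (47.1%), in 6 of the 11 that were called (54.5%), in 11% of all tested genes and in 11.1% of all genes that fell.

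**Figure D4:**
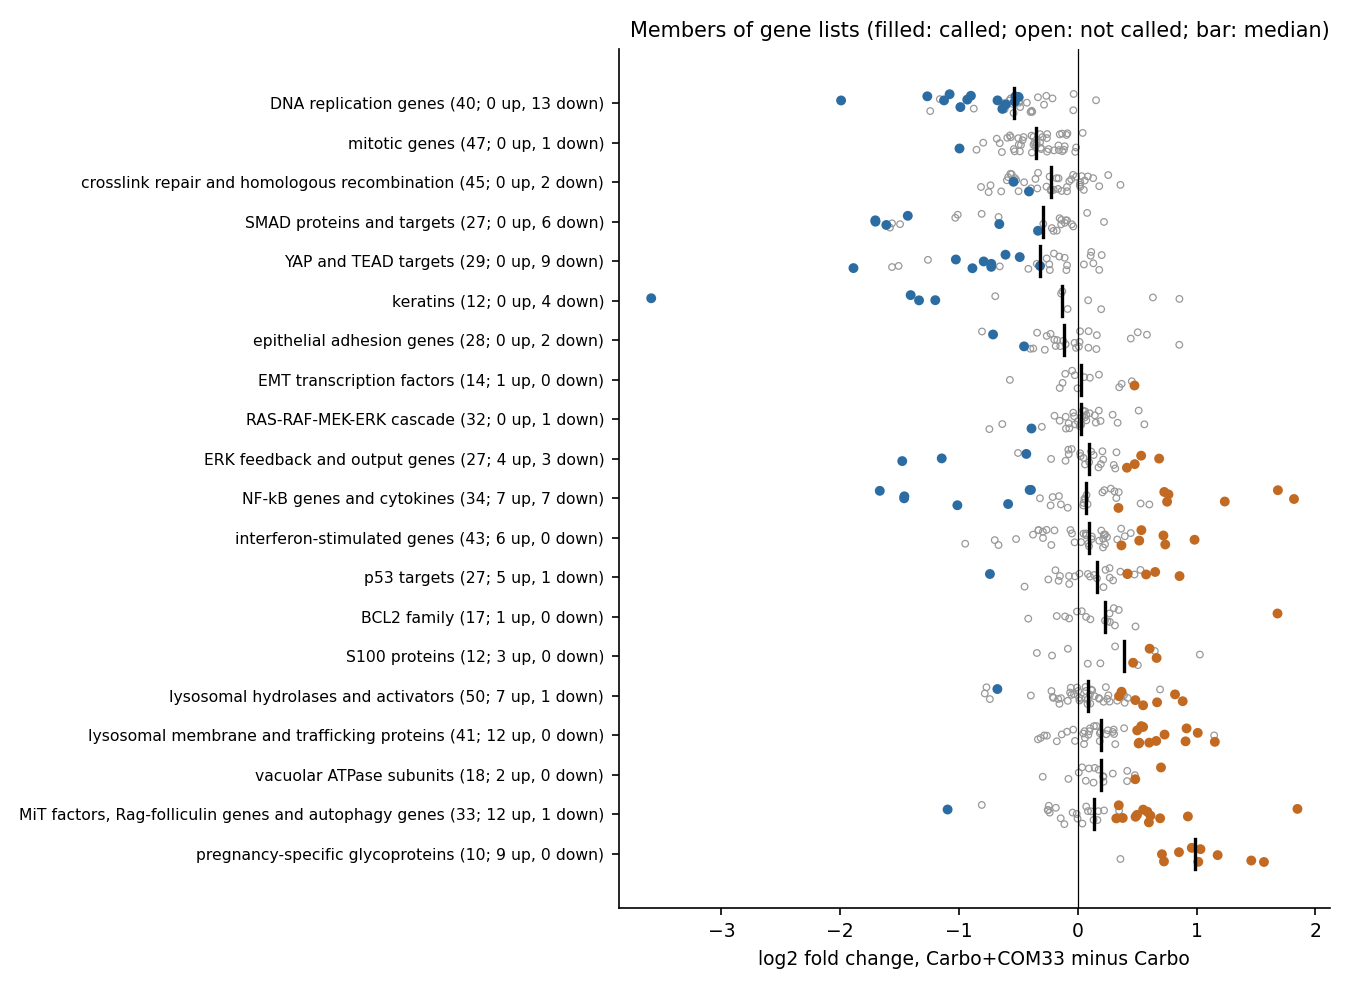
Log2 fold change (Carbo+COM33 minus Carbo, horizontal axis) of every tested member of 20 gene lists. Filled points were called, open points were not, and the bar is the list median. Of all tested genes 2.55% were called above 0 and 2.51% below 0. DNA replication genes lie almost wholly below 0 with 13 called, RAS-RAF-MEK-ERK and EMT factors scatter around 0, 9 of 10 pregnancy-specific glycoproteins are called above 0, and the 3 lysosomal lists hold 7, 12 and 2 genes called above 0, with 33 of 50, 32 of 41 and 16 of 18 members at positive values; these and the MiT list were written after values were seen.

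Some lysosomal genes were among the rises that held in every left-out fit, and the lists for them were written after those values were seen. Lysosomes digest material delivered by endocytosis and autophagy, and TFEB, TFE3 and MITF, the MiT factors, induce their genes through the CLEAR element, whose core is the E-box CACGTG. The Rag GTPases with folliculin tell these factors and mTORC1 about amino acids. Over all tested genes 2.55% rose and 2.51% fell. Of 50 tested hydrolases and activators 7 rose and 1 fell, with a median of 0.08 (11 and 5 without Carbo 1, 2 and 0 without Carbo 2). NEU1, the lysosomal sialidase, stood at 62.5, 50.6 and 50.2 CPM in Carbo and 102, 97.3 and 102 CPM in Carbo+COM33, with 67, 50.2 and 49.1 CPM in the controls (log2 fold change 0.88, SE 0.12, adjusted p = 0.00293). The cathepsins CTSL (0.82) and CTSB (0.37), the peptidase TPP1 (0.67), the ceramidase ASAH1 (0.35) and PSAP, the precursor of the saposins (0.49), rose, and CTSC fell (-0.68). Of 41 tested membrane and trafficking proteins 12 rose and 0 fell, with a median of 0.19 (18 and 2 without Carbo 1, 4 and 0 without Carbo 2). The cystine transporter CTNS (41.8, 37.8 and 36 to 57.9, 56.2 and 55.1 CPM), the adaptor PLEKHM1 (169.7, 150.1 and 137 to 252, 249 and 257 CPM), the transporter MFSD1 (0.51) and the tetraspanin CD82 (1.01) held in every left-out fit. The cholesterol exporters NPC1 (0.66) and NPC2 (0.91), CD63 (0.92), and the sorting receptors M6PR (0.50) and IGF2R (0.52) rose too. Of 18 tested subunits of the vacuolar ATPase, the proton pump, 2 rose, ATP6V1B2 (0.70) and ATP6V1C1 (0.48). On that list 6 rose without Carbo 1 and 0 without Carbo 2. The summed level of the membrane and trafficking list was 4327 to 4977 CPM in Carbo and 5842 to 5996 CPM in Carbo+COM33. CTSL, CTSB, TPP1, ASAH1, PSAP, CTSC, NPC1, NPC2, CD63, M6PR, IGF2R and both ATPase subunits were not called without Carbo 2, with adjusted p of up to 0.204 for PSAP and 0.053 for CTSL over the left-out fits.

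Some genes of the Rag GTPases and of folliculin rose too. RRAGD, which encodes RagD, stood at 48, 34.9 and 31.4 CPM in Carbo and 76.9, 74.9 and 65.6 CPM in Carbo+COM33 (log2 fold change 0.93, SE 0.15, adjusted p = 0.00484), and RRAGC, which encodes RagC, at 53.4, 41 and 37.6 and 74.4, 71.8 and 67.4 CPM (0.69). FNIP2, a partner of folliculin, rose from 21.9, 22.9 and 23.3 to 36.5, 34.9 and 32.8 CPM (0.61), and FLCN, folliculin, by a log2 fold change of 0.60. FNIP1 was not called (0.35, adjusted p = 0.0703). GPNMB, a transmembrane glycoprotein often used as a readout of MiT activity, rose from 1.08, 1.4 and 1.46 to 3.99, 5.33 and 4.92 CPM (log2 fold change 1.85, SE 0.25, adjusted p = 0.00245). Autophagy genes that rose included SQSTM1, the p62 receptor (0.59), MAP1LC3B (0.49), OPTN (0.38), WIPI1 (0.55) and DRAM1 (0.50). In the list of MiT, Rag-folliculin and autophagy genes the log2 fold change was positive in 21 and negative in 12. Of all tested genes 2.55% rose and 2.51% fell. In all, 12 of 33 tested genes of this list rose and 1 fell, with a median of 0.13. The 1 that fell was MITF itself, at 13.5, 18.5 and 22.2 and 8.49, 9.18 and 7.69 CPM (-1.10, adjusted p = 0.00793). TFEB had 11, 16.2 and 15.9 and 6.94, 6.38 and 11.3 CPM (-0.81, adjusted p = 0.0512) and TFE3, the most abundant of the 3 by FPKM, 166, 184 and 187 and 164, 170.4 and 187 CPM (-0.04, adjusted p = 0.807). The mean FPKM over the 6 libraries, a level per length of transcript, was 41 for TFE3, 1.997 for TFEB and 1.85 for MITF. Where these factors sit in the cell was not measured. Without Carbo 2, RRAGC, FLCN, SQSTM1, MAP1LC3B, OPTN, WIPI1 and MITF were not called (adjusted p over the left-out fits up to 0.168 for SQSTM1 and 0.0622 for RRAGC), while RRAGD, FNIP2, GPNMB and DRAM1 were.

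Promoters of NEU1 and RRAGC, both of which rose, are shown for the E-box, which reads the same on either strand. They lie at chr6:31862822-31863071 and chr1:38859773-38860022 of GRCh38.p14, both on the minus strand, printed 5′ to 3′ along the gene with CACGTG in capitals.
NEU1: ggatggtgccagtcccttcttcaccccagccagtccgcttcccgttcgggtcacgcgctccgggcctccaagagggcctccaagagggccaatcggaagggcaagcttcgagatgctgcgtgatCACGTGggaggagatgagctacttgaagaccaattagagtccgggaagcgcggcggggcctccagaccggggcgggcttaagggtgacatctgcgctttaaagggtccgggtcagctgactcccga
RRAGC: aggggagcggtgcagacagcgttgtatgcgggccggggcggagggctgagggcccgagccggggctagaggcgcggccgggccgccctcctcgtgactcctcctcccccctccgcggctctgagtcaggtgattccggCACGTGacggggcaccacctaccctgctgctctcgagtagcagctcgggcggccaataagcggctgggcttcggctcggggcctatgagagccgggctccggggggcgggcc
By the GENCODE location given below, NEU1 begins inside the printed stretch. The E-box starts 126 bases before the RefSeq start in NEU1 and 112 bases before it in RRAGC. It occurred in 30 of 108 genes of the lysosomal, MiT and autophagy lists with a promoter (27.8%), in 7 of the 24 of them that rose (29.2%), in 11% of all tested genes and in 13.3% of all genes that rose. The listed genes that rose thus held it about as often as the lists as a whole.

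Pregnancy-specific glycoproteins, secreted proteins of the immunoglobulin family made mainly by placenta, rose together. Of 10 tested genes 9 rose, with a median of 0.99, against 2.55% of all tested genes that rose. This list too was written after the values were seen. PSG4 had 68.1, 69.2 and 73.6 CPM in Carbo and 121, 131 and 96.8 CPM in Carbo+COM33 (0.73), PSG1 37.8, 40.2 and 34.3 and 57, 71.1 and 55.6 CPM (0.71), and PSG5 18, 23.7 and 22.5 and 33.1, 41.5 and 41.4 CPM (0.85). The genes lie side by side on chromosome 19 and are closely similar, so reads may be split or shared among them and the 9 calls are not separate observations. PSG1, PSG2, PSG4, PSG5 and PSG7 were called in every left-out fit, and PSG3, PSG8, PSG9 and PSG11 were not called without Carbo 2 (adjusted p up to 0.17 for PSG8).

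Among 27 tested genes that handle platinum 3 rose and 0 fell, with a median of 0.00, and in 11 of them the groups did not overlap. Without Carbo 1, 3 rose and 3 fell. Over all tested genes 2.55% rose and 2.51% fell, and the groups did not overlap in 23.8%. SLC31A1, which encodes the copper importer CTR1 that also admits platinum drugs, had 78.3, 71.4 and 64.4 CPM in Carbo and 99.9, 94.7 and 89.3 CPM in Carbo+COM33 (0.41, adjusted p = 0.0332). The copper exporters ATP7A (-0.06) and ATP7B (0.15) were not called. GSTO1, an omega-class glutathione transferase, rose from 54.8, 46.8 and 50.1 to 83.1, 74 and 88 CPM (0.69) and held in every left-out fit. SLC31A1 was not called without Carbo 2 (adjusted p over the left-out fits up to 0.143). Of 16 tested aldehyde dehydrogenases 3 fell, ALDH3A1 (-2.27), ALDH3B1 (-0.57) and ALDH3A2 (-0.41), all of family 3, and of 27 NRF2 targets 3 fell, among them the aldo-keto reductases AKR1C1 (-0.66) and AKR1C3 (-0.45), close paralogs that may share reads. The 3 aldehyde dehydrogenases and AKR1C3 were lost without Carbo 2 (adjusted p up to 0.0881 for AKR1C3 and 0.0839 for ALDH3A2), and AKR1C1 was not. Without Carbo 1, 4 NRF2 targets rose and 5 fell.

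The list counts here are set beside all tested genes, of which 2.55% rose and 2.51% fell. Interferon-stimulated genes rose in 6 of 43 cases and fell in 0, with a median of 0.09. Without Carbo 1, 11 interferon-stimulated genes rose and 5 fell. IRF1, an interferon regulatory factor, led them, from 71.1, 47.6 and 41.3 to 109.8, 100.1 and 106 CPM (0.98, adjusted p = 0.00775), followed by the antiviral gene RSAD2 (0.74) and ISG20 (0.72). Of 12 tested S100 genes, small calcium-binding proteins, 3 rose, with a list median of 0.39. S100A11 stood at 388, 317 and 320.4 and 599.6, 547 and 477 CPM (0.66) and was called in every left-out fit, and S100A10 (0.47) and S100A3 (0.61) rose. Among 21 tested genes of fatty acid oxidation and PPAR response, PDK4, which restrains entry of pyruvate into the citric acid cycle, fell from 8.63, 9.02 and 10.4 to 3.4, 3.99 and 1.66 CPM (-1.63) and ANGPTL4, a lipase inhibitor, from 36.8, 28.6 and 20.2 to 9.15, 10.5 and 12.6 CPM (-1.41). Both held in every left-out fit, while PPARG rose (0.41). IRF1, RSAD2, ISG20, S100A10, S100A3 and PPARG were lost without Carbo 2, with adjusted p up to 0.0615, 0.0793, 0.119, 0.15, 0.148 and 0.166. Of 79 tested ribosomal protein genes 0 rose and 2 fell, of 70 nuclear genes of oxidative phosphorylation 1 fell, and of 12 mitochondrially encoded genes 0 were called by edgeR in either direction. Without Carbo 1, 18 ribosomal protein genes rose and 4 fell, and 9 oxidative phosphorylation genes rose and 1 fell.

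Among the most abundant called genes by FPKM, the rises included PSAP, S100A11, LGALS1, a galectin (0.44), GADD45A, ITGA3, an integrin subunit that binds laminin (0.49), HMGA1 (0.87), CLIC1, a chloride channel protein, and KIAA1551. CLIC1 had 475, 432 and 413 CPM in Carbo and 629.96, 636 and 679 CPM in Carbo+COM33 (0.56) and was called in every left-out fit. The laminin subunit gene LAMB3 (0.35) rose too. LGALS1, ITGA3, HMGA1, KIAA1551 and LAMB3 were lost without Carbo 2, with adjusted p up to 0.185, 0.116, 0.13, 0.0972 and 0.13. The most abundant falls included CXCL1, F3, ERBB2, RPL4 (-0.51), PTMA (-0.31), CXCL2, ID1 and SLC25A6 (-0.33). RPL4 and PTMA have processed pseudogenes, and RPL4, PTMA and SLC25A6 were lost without Carbo 2 (adjusted p up to 0.123, 0.165 and 0.177).

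Several of the largest falls by fold depended on single libraries. CYP24A1, which degrades active vitamin D, had 21, 129 and 236 CPM in Carbo, 13.7, 16.1 and 16.5 CPM in Carbo+COM33 and 14.1, 50.7 and 61.3 CPM in the controls (log2 fold change -3.06, SE 0.68, adjusted p = 0.023). THBS1, thrombospondin 1, had 59, 279 and 391 CPM in Carbo, 36.7, 53 and 49.2 CPM in Carbo+COM33 and 52.8, 174 and 177 CPM in the controls (log2 fold change -2.39, SE 0.55, adjusted p = 0.0291). In both genes Carbo 1 lay close to the Carbo+COM33 libraries and control 1 close to Carbo 1, although the groups did not overlap. FLRT3, an adhesion protein (-2.72), ROS1, a receptor tyrosine kinase (-2.41), ARID5B, a DNA-binding protein (-2.29), and the growth factor carrier FGFBP1 (-2.18) had the same shape. SEMA3A, a guidance protein, had 11, 31.8 and 46 and 6.5, 7.36 and 7.13 CPM (-2.08). Without Carbo 2 or any single Carbo+COM33 library none of these 7 genes was called, and all but FLRT3 were also lost without Carbo 3; the adjusted p reached 0.106 for CYP24A1, 0.127 for THBS1, 0.0596 for FLRT3, 0.115 for ROS1, 0.0775 for ARID5B, 0.0923 for FGFBP1 and 0.0855 for SEMA3A. Among rises, SPP1, osteopontin, had 62.7, 24.8 and 24.1 and 138, 126 and 113 CPM (1.76) and CRYM, a thyroid hormone-binding protein, 6.003, 1.08 and 1.32 and 17.6, 14.9 and 15.1 CPM (2.51). They were not called without Carbo 2 or Carbo+COM33 1 (adjusted p up to 0.0812 and 0.0683).

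Locations of the genes that lead the account, on GRCh38 by GENCODE release 29, are as follows. SMOC1 (ENSG00000198732, chromosome 14, 69854131 to 70032366), DMBT1 (ENSG00000187908, chromosome 10, 122560665 to 122643736) and ID1 (ENSG00000125968, chromosome 20, 31605283 to 31606515) fell. IL6 (ENSG00000136244, chromosome 7, 22725884 to 22732002), ERBB2 (ENSG00000141736, chromosome 17, 39687914 to 39730426) and F3 (ENSG00000117525, chromosome 1, 94529225 to 94541800) fell as well. HRK (ENSG00000135116, chromosome 12, 116856144 to 116881441), CPNE7 (ENSG00000178773, chromosome 16, 89575768 to 89597246) and NAV2 (ENSG00000166833, chromosome 11, 19350724 to 20121598) rose, as did IL6R (ENSG00000160712, chromosome 1, 154405193 to 154469450), NEU1 (ENSG00000204386, chromosome 6, 31857659 to 31862906), RRAGD (ENSG00000025039, chromosome 6, 89364636 to 89412270) and GPNMB (ENSG00000136235, chromosome 7, 23235967 to 23275108). Counts were summed over whole genes, so exons, introns and untranslated regions were not resolved. Exons of BDNF, DKK1, NID2, TFPI2, NAV2, TLN2, ASB2, PLA2G4C, TM4SF19, IL6, ERBB2, CDKN1A, THBS1, BRAF, MAP2K1, DUSP6, ETV4, PHLDA1, CCND1, HMGA2, EGFR, TWIST1, ZEB1, VIM, CDH2, KRT7, KRT86, PAX8, WT1, PMEPA1, SMURF2, CRIM1, TEAD2, ARHGEF17, TNFAIP3, BCL2L11, BCL2L1, TNFRSF10B, MCM7, LIG1, KIF20A, FANCA, RPA1, ERCC1, ASAH1, CTNS, PLEKHM1, MFSD1, NPC1, NPC2, CD63, M6PR, ATP6V1C1, SQSTM1, MAP1LC3B, OPTN, WIPI1, DRAM1, PSG5, ALDH3A1, IRF1, RSAD2, ANGPTL4 and RPL4 overlap those of a gene on the other strand in that annotation, so without the strand setting the reads of each and its partner cannot be told apart. Exons of CD22, SHC1, ETV5, KRT86, RBMS3, AMOTL2, MCL1, RRM2, MFSD1, FLCN, PSG8, PSG9, ATP7A and CLIC1 overlap those of another gene on the same strand, and their counts are uncertain where reads fall in the shared bases.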

How the data were processed

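Total RNA of SKOV3 cells was selected with poly-T beads, made into libraries with a NEBNext Ultra kit and sequenced in pairs, per the labels' protocols. The authors deposited whole-number read counts per gene and FPKM values (fragments per kilobase of transcript, relative to library size). HISAT2, HTSeq 0.11.2, DESeq2 1.26.0 and build GRCh38 are named in the submitters' processing notes, and whether counting used strand is not given in the sources used here. All 32378 identifiers and names matched GENCODE release 29.

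Counts of all 9 libraries were fitted with edgeR 4.0.16 (TMM, quasi-likelihood test, 1 coefficient per group, 6 residual degrees of freedom, no replicate block), with R 4.3.3. Normalization factors ran from 0.980 to 1.02 and the common dispersion was 0.0132. Calls used an adjusted p under 0.05 (Benjamini-Hochberg, 16074 genes). Deposited FPKM served only to compare levels between genes. Standard errors (SE) were taken as the absolute log2 fold change over the square root of F. Principal components were computed on 6610 genes whose mean log2 CPM exceeded 5. Tables and figures were made with pandas 2.3.3 and matplotlib 3.10.9 under Python 3.11.15.

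Named genes were the 12 largest changes per direction with groups apart and at least 5 CPM, the 8 most abundant and the 5 lowest p per direction, up to 5 called members per list and direction, and key genes of EMT, ERK signalling and platinum response (198 genes). A further 124 were chosen after their values were seen, as were the 3 lysosomal lists, the MiT list and the pregnancy-specific glycoproteins. The comparison and the other lists were chosen with earlier results of these data known. Motifs were searched in the 250 bases before RefSeq starts (GRCh38.p14), on both strands and with overlaps between motifs allowed, for the 10866 tested genes found in that table. Alternatives were RLE factors, DESeq2 1.42.0, other filters, the 6 libraries alone, a replicate block on those 6, a GC and length correction, and each library left out. Some genes counted in the lists are not reported here by name.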

Additional observations from a re-analysis of the deposited data

How the results depend on the processing

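Genes called numbered 813 with the main settings. The count was 1241 with the GC and length correction, 1359 with DESeq2, 1893 with no filter on low counts (30935 genes tested), and 123 to 2734 with 1 library left out. It was 806 with RLE size factors, 816 with the filterByExpr function and 594 with the 6 libraries alone. The replicate block was fitted to the 6 libraries alone, with 2 residual degrees of freedom. It gave 475 calls, against 594 in those libraries without the block, and 405 were shared with the main fit. Together with the GC and length correction the block gave 1067 calls. No paired reading of the numbers was used: deviations of same-numbered Carbo and Carbo+COM33 libraries correlated across 6610 genes at -0.0149, 0.138 and -0.389, and none of the 6 libraries correlated best with its own number. Of the 322 named genes none reversed direction past the threshold under these settings. The replicate block took the call from 79 of them, the 6 libraries alone from 40 and the loss of Carbo 2 from 163. The cause was not tested. Depth of 13851760 to 15533668 counts limits genes such as CDH1, which had at most 1 count in each of the 6 libraries.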

Other observations

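Further genes were called in each of the 9 fits leaving out 1 library. All but CA12, SEMA3F, ZSCAN31 and HSPB8 were chosen after their values were seen. SLPI, a protease inhibitor of mucosal fluids, stood at 59.8, 69.7 and 74.5 CPM in Carbo and 37.1, 41.8 and 31.9 CPM in Carbo+COM33 (log2 fold change -0.88, SE 0.12, adjusted p = 0.0022). CA12, a carbonic anhydrase of the cell surface, fell from 60.03, 68.6 and 72.9 to 33.4, 35.7 and 36.8 CPM (-0.93), and SEMA3F, a secreted semaphorin, from 60.6, 68.6 and 57.7 to 28.3, 30.8 and 39.5 CPM (-0.92). MISP, an actin-bundling protein of the mitotic spindle, fell from 131, 149.5 and 159.98 to 87.9, 88.4 and 102 CPM (-0.66). The transcription factor genes SIM2 (-0.79), HOXB6 (-0.59) and ZSCAN31 (-1.37) and the phosphodiesterase genes PDE7B (-1.62) and PDE4D (-0.83) fell. HOXB6 had 35.7, 36.4 and 33.5 CPM in Carbo and 23.5, 23.5 and 23.3 CPM in Carbo+COM33.

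Rises in the same set included membrane and cytoskeletal genes. ANXA5, an annexin that binds phosphatidylserine, rose from 302, 308 and 322 to 499.9, 477 and 437 CPM (log2 fold change 0.60, SE 0.078, adjusted p = 0.002), and SDCBP, syntenin, which acts in exosome formation, from 342, 252 and 251 to 559, 507 and 499 CPM (0.89). PODXL, podocalyxin, rose from 281, 256 and 235 to 383, 415 and 397 CPM (0.63), and MAP2, a microtubule-associated protein of neurons, from 35.1, 29.7 and 27.5 to 57.6, 67.1 and 67.2 CPM (1.06). HDAC9, a class IIa deacetylase, rose from 27.3, 20.3 and 19.3 to 59.5, 52.4 and 47.5 CPM (1.25), and LYST, which controls lysosome size, from 66.6, 65.5 and 64.1 to 98, 97.9 and 87.9 CPM (0.53). IFI16, a sensor of DNA (0.84), GBP3, a guanylate-binding protein (0.65), MAP2K3, a kinase upstream of p38 (0.67), and HSPB8, a small heat shock protein of selective autophagy (1.05), rose as well. In these genes the groups did not overlap. SEMA3F, HOXB6, PDE7B, PDE4D and LYST overlap a gene on the other strand and are uncertain for that reason.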
